A study of Mus musculus with 74 samples.

Results

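The small peak sets of 5 epitope-tagged KRAB zinc finger proteins (KRAB-ZFPs) were examined one by one and against each other: 2610305D13Rik, Gm13212, Gm30910, LOC102638055 and Zfp534. Their members are the rows that carry one of these names in the deposited ChIP-seq peak table, 763 peaks of the 53011 that belong to 67 labelled KRAB-ZFPs. LOC102638055 had 373 peaks, Gm13212 191, 2610305D13Rik 83, Gm30910 64 and Zfp534 52. In all 5 samples the protein carried an N-terminal 3XFLAG tag, was expressed from a stably integrated Sleeping Beauty transposon with a codon-optimised reading frame in F9 EC cells, a mouse embryonal carcinoma line, and was precipitated with anti-FLAG antibody F1804. Per the study's methods, puromycin-resistant clones were pooled, so each sample is a mixed population that makes the protein above whatever the cells make themselves. Peaks were called against F9 input and a FLAG control ChIP. The labelled thresholds were a p of 1e-10 and an enrichment of 20 for Gm30910 and LOC102638055, a p of 1e-10 and an enrichment of 10 for 2610305D13Rik and Zfp534, and a p of 1e-05 and an enrichment of 10 for Gm13212. Each KRAB-ZFP had 1 sample. No value below therefore has a replicate error, and every test compares deposited peak lists rather than repeated experiments.

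KRAB-ZFPs form one of the largest families of DNA-binding proteins in mammals. An array of zinc fingers reads the DNA sequence, while the KRAB domain recruits the co-repressor KAP1 (Trim28) and with it histone methylation of H3K9. Many family members bind transposable elements, and others bind gene promoters or simple repeats. The mouse genes lie in clusters of recent copies. Gencode vM1 holds 3 of the 5 genes, all near the distal end of chromosome 4: Gm13212 at chr4:145175069-145215248, 2610305D13Rik at chr4:146986046-147052416 and Zfp534 at chr4:147047611-147076662 (build mm9, as for all positions here). None of the 3 proteins had a peak within 1 Mb of its own gene, and the nearest lay 1432256 bp away, for Gm13212.

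Short DNA motifs were learned from the 101 bp around the summits on the odd-numbered chromosomes and X and then counted on the remaining chromosomes; for 4 of the 5 sets they recurred there. The sites below are read from the mm9 reference on the strand of the motif, 30 bases each, with the bases matched by the learned motif in capitals. For 2610305D13Rik they show a GGACAG core, which each printed site holds within TGGACAGC. The bases outside the motif are unlike at Sult4a1 (chr15:83916966-83916995, plus strand), Stx1a (chr5:135513254-135513283, minus strand) and Madd (chr2:91022699-91022728, plus strand). The sites near Olfr748 (chr14:51339752-51339781, plus strand) and Hsd17b13 (chr5:104379347-104379376, minus strand) lie in a repeated sequence.
Sult4a1: gctccAGGCCATGGACAGCGCCTCTcggca
Stx1a: ggaacAGCTCCTGGACAGCGCCAAGcatag
Madd: ccctcACCTGCTGGACAGCTCCTCGtcccc
Olfr748: acagcCAGGACTGGACAGCGCCTGGacagc
Hsd17b13: acagtCAGGCCTGGACAGCGCCTGGacagc

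For LOC102638055 the sites show a motif whose bases differ between loci at some positions and not at others, at Bahcc1 (chr11:120109850-120109879, plus strand), Zscan21 (chr5:138558172-138558201, plus strand), Rrp36 (chr17:46811372-46811401, plus strand), Ruvbl2 (chr7:52689285-52689314, minus strand) and Ehmt2 (chr17:35047567-35047596, minus strand).
Bahcc1: gtcCCTAGGAGAGCATGCCAGAATCAGgca
Zscan21: cagCCGCTGTGAGGATTCCAGACTCCAaag
Rrp36: cgtCTGCGGAGAGGCTGCCAGGCTCAGtgg
Ruvbl2: gttGGGAGGAGAGGATACCAGGGTCTGagg
Ehmt2: gttCTGAGGGGAGGATTCCTTGATCTAagg

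For Gm30910 the sites show near-identity between distant loci, with the flanking bases shared too. They are intergenic and named by the nearest gene: Gm6802 (chr12:19549347-19549376, plus strand), 1700030C10Rik (chr12:20789192-20789221, plus strand), Gm9742 (chr13:7629645-7629674, plus strand) and Rgs9bp (chr7:36355408-36355437, plus strand).
Gm6802: agaGATCAGAGGAAGAAAAGGGCCAGTatt
1700030C10Rik: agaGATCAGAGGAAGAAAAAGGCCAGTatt
Gm9742: agaGATCAGAGGAGGAAAAGGGCCAATact
Rgs9bp: agaGATCAGAGGAGGAAGAAGGCCAGTact

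For Zfp534 the sites show a tandem repeat of GGAAT, here from an intron of Dpp9 (chr17:56339478-56339507, minus strand) and a position 367991 bp from Arid1b (chr17:4626328-4626357, minus strand).
Dpp9: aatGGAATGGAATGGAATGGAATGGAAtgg
Arid1b: agtGGAATGGAATGGAATGGAATGGAAtgg

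The sets also differed in the strength of their peaks. MACS14, the peak caller, gives each peak its tags (reads in the peak), a fold enrichment over the local control background and a score. LOC102638055 reached the highest folds, up to 187.3, with a median of 30.2 and 41 tags. Gm30910 peaks had a median fold of 34.2 (highest 89.7) and 56.5 tags, 2610305D13Rik peaks 22.7 (highest 97.13) and 31 tags, and Zfp534 peaks 25.8 (highest 82.51) and 28.5 tags. Medians of fold are not compared between sets, since the labelled enrichment thresholds differ. Gm13212 stood apart: its folds ran from 10 to 19, its tags from 8 to 20, and 111 of its 191 peaks held 10 tags or fewer. Every Gm13212 peak had a false discovery rate between 5.17% and 11.65%, and none scored above 97.91, that is, none passed p under 1e-10, whereas the highest false discovery rate in the other 4 sets was 3.03%. Called peaks differed in width, with medians of 464 bp for LOC102638055, 426.5 bp for Gm30910, 325 bp for 2610305D13Rik, 241.5 bp for Zfp534 and 137 bp for Gm13212. Among the 18 FLAG sets of the series, Gm13212 had the narrowest peaks. The depth of the libraries is unknown, and the tags summed over peaks, 2002 for Gm13212 to 21877 for LOC102638055, do not stand in for it.

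**Figure D1:**
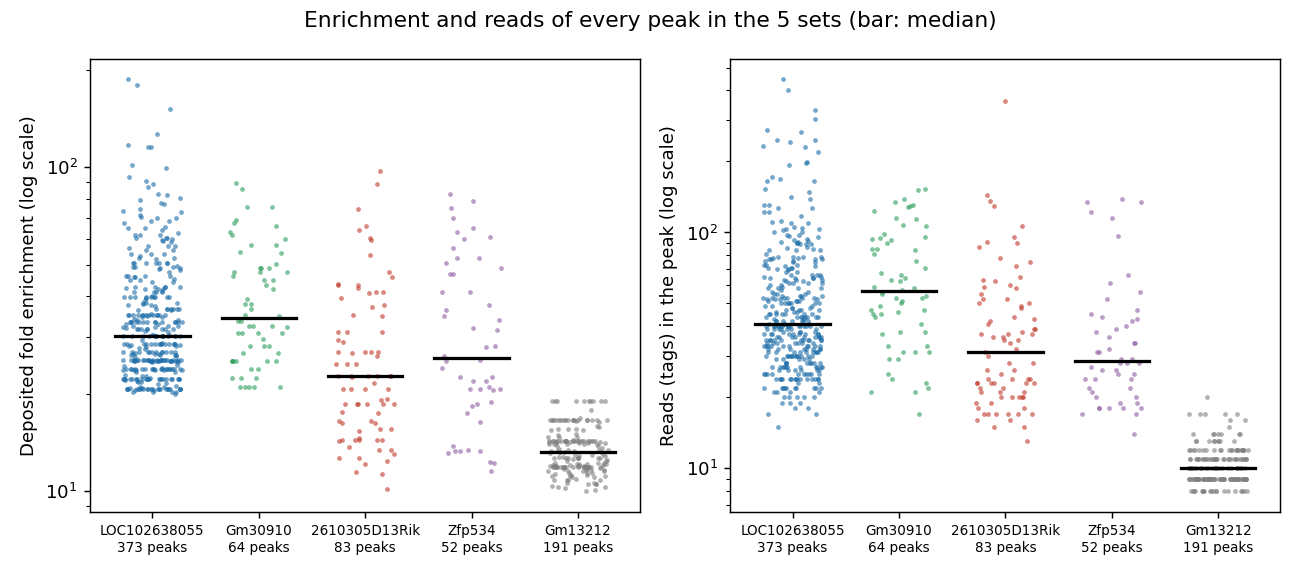
Deposited fold enrichment (left) and reads in the peak (right) of each peak in the 5 sets, both on log scales, with a bar at the median. All Gm13212 points lie at a fold of 19 or less and at 20 reads or fewer, while each of the other sets reaches a fold above 80.

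LOC102638055 peaks centred on a single motif at most loci. Its motif spanned 24 bp with the consensus nnnnnGnGAGGATTCCnGnnTCnn, where a capital marks a base with a weight of at least 60%. On the chromosomes not used for learning, 128 of 167 peaks held it (76.6%, 95% Wilson interval 69.7 to 82.4), against 3 of 189 peaks of the other 4 sets (1.59%) and 1.93% of flanking windows from the same loci (two-sided Fisher's exact test, adjusted p = 4.71e-56). Over all chromosomes 293 of 373 peaks held the motif, and the background in peaks of the other 62 KRAB-ZFPs was 2.57%. Within the learned matrix the T at position 13 (97%), the C at positions 15 and 16 (99% and 92%) and the T at position 21 (95%) varied least, counted from the 5′ end. The inner bases varied: the 9-base core from the eighth to the sixteenth position was GAGGATTCC at 41 sites, GAAGATTCC at 39, GAGGATGCC at 18 and GAGCATTCC at 17, with 101 different cores over 293 sites. Median folds of these 4 groups lay between 28.57 and 33.33. The 10 sites with the core GAGGCTGCC, singled out after its value was seen, had a median of 50.7 and folds from 20.84 to 126.98.

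Outside the motif no column of the aligned sites reached 60% for any base, over 23 bp on either side, so the LOC102638055 sites had little in common beyond the motif itself. The motif centre lay at a median of 11.5 bp from the summit. Peaks with the motif had a median fold of 31.8 and those without it 25.4. Across the 293 sites the motif score and the fold correlated weakly (Spearman's rho 0.18, over sites of 1 library), so that the score said little about the height of a peak.

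LOC102638055 peaks lay often at transcript starts: 59 of 373 summits (15.8%) were within 1 kb of one, where the background over all 67 sets was 11.2%. These included 11 of the 20 highest peaks. Among the 5 highest peaks by fold were Rpl11, a protein of the large ribosomal subunit (fold 187.3, 329 tags, 127 bp from the start), Bahcc1, a chromatin protein with a BAH domain (fold 179.36, 271 tags, in an intron), and Zscan21, a zinc finger transcription factor (fold 150.95, 219 tags, 21 bp from the start). The other members of that group were Rrp36, needed for ribosomal RNA processing (fold 126.98, 130 bp from the start, in an intron of the overlapping Gm16736), and Ruvbl2, an ATPase of chromatin remodelling complexes (fold 117.46, 690 bp from the start). Ehmt2, which encodes a histone H3K9 methyltransferase, followed among the start peaks with a fold of 115.87 at 339 bp. Of the start peaks 51 of 59 held the motif, and of the remaining peaks 242 of 314. The median GC content was 55.5% at starts and 47.5% elsewhere.

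Zinc finger genes lay within 10 kb of 11 LOC102638055 peaks (2.95%, Wilson interval 1.65 to 5.20, against 1.07% of all peaks of the series). Besides Zscan21 they included Zfp961 (fold 115.97), Zfp148 (fold 67.4) and Zfp553 (fold 50.79), and 9 of the 11 held the motif. Of the pluripotency genes listed, Tet1, an enzyme that oxidises methylcytosine, had a peak of fold 80.4 in an intron, and Sox2 had a peak of fold 34.63 within 10 kb. Chd4, the ATPase of the NuRD complex, was the 1 gene of the silencing machinery list near a peak of any of the 5 sets (fold 39.62). All 3 peaks held the motif. Over all 67 sets 0.0943% of peaks lay near a pluripotency gene of the list and 0.0679% near a silencing machinery gene. The lists hold, for example, Pou5f1, Nanog and Tet2, and Trim28, Setdb1 and the Dnmt genes. No peak of the 5 sets lay within 10 kb of a listed imprinted gene, where the share over all sets was 0.0453%.

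Few LOC102638055 peaks were exact repeats or were shared. Copy number was taken as the median number of genome positions of the 24-base words in the 200 bp window. Diverged copies do not enter it. Of 373 peaks, 332 had a copy number of 1 and 11 (2.95%) had 10 or more, where the background over the 67 sets was 34.5%. When 600 bp windows were aligned with each other, 94 peaks matched at least 1 other peak of the set, against 108 windows shifted by 2000 bp. Of the shifted windows 86 fell in 1 group, so their count rests mostly on that group. The largest groups of peaks held 38, 25 and 22 peaks with median identities of 87.1%, 82.1% and 75.5%, and 28, 20 and 19 of them held the motif. Loci shared with any other KRAB-ZFP numbered 8 (2.14%), where the background was 13.8% of all peaks: 3 with Gm13152, 2 with Zfp661 and 1 each with 4 others. The motif itself was met again elsewhere. It was present in 331 of 1517 peaks of Gm8898 (21.8%) and 59 of 480 peaks of Gm14443 (12.3%), the highest shares among the other 66 sets, yet no locus was shared with either. These 2 sets, singled out after their values were seen, come from HA-tagged proteins in ES cells.

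Most Gm30910 peaks lay on copies of 1 sequence. Of its 64 peaks, 54 formed a single alignment group in which the median identity was 73.5% (range 65.7 to 100) and whose members were spread over 19 chromosomes; when the windows were shifted by 2000 bp, the largest group held 13. The learned motif spanned 24 bp, GATCAGAGGAnGAAAAnGGCCAGT, and 17 of its 24 columns held 1 base in at least 90% of sites. In contrast to LOC102638055, the likeness ran on past the motif: 31 of 46 columns outside it reached 60%. The motif was found in 22 of 29 held-out peaks (75.9%, Wilson interval 57.9 to 87.8), in 4 of 327 peaks of the other sets (1.22%) and in 2.25% of flanking windows (Fisher's exact test, adjusted p = 8.65e-25). Since the peaks are copies of each other, held-out chromosomes are not independent of those used in learning. Over all chromosomes 51 of 64 peaks held the motif, 49 of them in the alignment group, against a background of 1.53% in the other 62 sets. The next highest share was in Zfp931, with 6.07%.

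High exact copy numbers were rare among them. Just 5 Gm30910 peaks (7.81%) had a copy number of 10 or more, and the highest was 22. A copy number of 2 or more was found for 28 of 64 (43.8%) and of 1 for 36. This number counts identical 24-base words, so that diverged copies do not enter it. On the even-numbered chromosomes and Y the genome held 8 matches in the highest quartile of motif scores, of which 6 lay within 100 bp of a Gm30910 summit (75%), and 10 in the next quartile, of which 6 did (60%). In the 2 lower quartiles 7 of 145 (4.83%) and 7 of 189 (3.70%) did. The same count for LOC102638055 rose from 0.0219% of 178355 matches in the lowest quartile to 8.72% of 436 in the highest, and for 2610305D13Rik from 0.0259% of 73290 to 1.95% of 257. In the 2 upper quartiles 12 of 18 matches thus lay under a peak for Gm30910. The quartiles were cut from the scores of each set's own held-out peak sites. The number of matches in peaks per quartile is therefore largely set beforehand, and the shares follow how many matches the genome holds. They do not measure how fully a motif is bound, and the sets are not ranked by them.

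**Figure D2:**
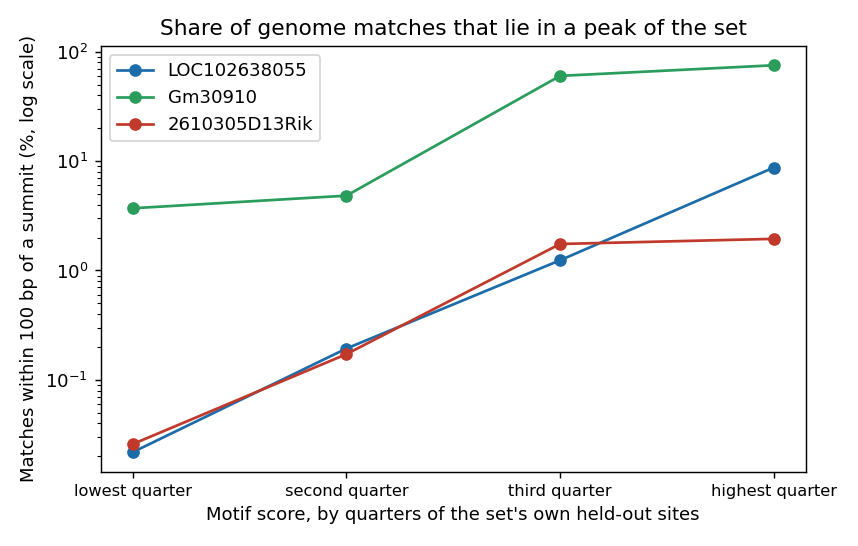
Share of motif matches on the even-numbered chromosomes and Y that lie within 100 bp of a summit of the same set (log scale), by quartile of the scores of the set's own held-out sites. Gm30910 climbs to 75%, LOC102638055 to 8.72% and 2610305D13Rik to 1.95%. Because the quartiles are cut from peak sites, the sets are not ranked by these shares.

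The Gm30910 peaks were mostly remote from genes. Of 64 summits 49 were intergenic, 14 intronic, 1 in a UTR and none in coding exons. Within 1 kb of a transcript start lay 2 (3.13%, against a background of 11.2% over all 67 sets). They were those of Yipf5, a Golgi membrane protein (fold 43.45, 240 bp), and Rhpn2 (fold 21.02, 858 bp). Both peaks lacked the motif. Chromosome 12 carried 11 peaks, 8 of them between 19 and 25 Mb (summits 19549339 to 24712266). These 8 all belonged to the alignment group, had copy numbers of 4 to 6 and a median fold of 56.1 (22.43 to 89.7), while the 53 peaks on other chromosomes had a median of 32.3. Of the 5 highest peaks 3 lay there: 51194 bp from Gm6802 (fold 89.7, 151 tags), 287311 bp from Gm10479 (fold 85.5, 128 tags) and 30932 bp from 1700030C10Rik (fold 75.69, 114 tags). The other two were 399447 bp from Gm9742 on chromosome 13 (fold 75.69, 139 tags, copy number 1) and 8584 bp from Rgs9bp, a regulator of G protein signalling in photoreceptors (fold 68.68, 130 tags). Reads that fit several copies equally well were placed at 1 of them by the aligner, and the part this plays in the heights on chromosome 12 was not tested. Of 64 peaks 5 (7.81%) were shared with another KRAB-ZFP, 3 of them with Zfp617, where the background was 13.8% of all peaks.

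The peaks of 2610305D13Rik are described in 3 groupings, drawn up after their values were seen. The groupings overlap. The first carried a motif of 20 bp, nnnnCnnGGACAGnnnCnnn, and over its sites no column outside the motif reached 60%. It takes in the 9 peaks of the second grouping, which are copies of 1 sequence. In all, 30 of the 83 peaks aligned with another peak of the set, against 16 windows shifted by 2000 bp. Other alignment groups held motif peaks too: 4 of 6 peaks in 1 of them (median identity 81.2%), 1 of 4 in another and 2 of 4 in a further one. Held-out peaks held the motif in 15 of 36 cases (41.7%, Wilson interval 27.1 to 57.8), peaks of the other 4 sets in 5 of 320 (1.56%) and flanking windows in 0.962% (Fisher's exact test, adjusted p = 1.01e-12). Because of these copies, held-out and learning peaks are not fully independent. When learned on the even-numbered chromosomes instead, the motif read nnnTGGACAGCnCnnnGn and was present in 21 of 47 peaks on the others (44.7%). Over all chromosomes 38 of 83 peaks held it, against a background of 1.8% in the other 62 sets, where Gm13152 came next with 8.86%. It was found in 16 of the 20 highest peaks by fold and in 3 of the 20 lowest, whereas by reads the order was the other way, with a median of 27 tags with the motif and 35 without. Its centre lay at a median of 12.5 bp from the summit, within 25 bp at 36 of 38 sites. The letters GGACAGC by themselves, on either strand, occurred in 33 of 83 windows (39.8%) and in 1.95% of flanking windows. As background, GGACAG is also found in the element bound by REST, a zinc finger repressor of neuronal genes. No REST data are among these samples, and no comparison with REST was made.

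The highest 2610305D13Rik peak lay in an intron of Celf4, an RNA-binding protein of neurons (fold 97.13, 144 tags), and the second in an intron of Sult4a1, a brain sulfotransferase (fold 88.73, 91 tags). The third was in an intron of F12, which encodes coagulation factor XII (fold 74.28, 87 tags). Stx1a, a SNARE protein of synaptic vesicle fusion, had the fourth, at 90 bp from its start (fold 66.03, 58 tags). The fifth was the intergenic peak 8849 bp from Olfr748 (fold 63.92, 75 tags). The other motif peaks within 1 kb of a start, most of them named after their values were seen, were those of Madd, an activator of Rab3 (fold 53.65, 303 bp), Acaa1b, a peroxisomal thiolase (fold 34.83, 257 bp), Ap3b2, a subunit of the neuronal AP-3 adaptor (fold 24.76, 226 bp), Grm2, a glutamate receptor (fold 22.7, 243 bp), Scg2, a granin of secretory vesicles (fold 20.63, 38 bp), Npdc1, Gm14740 and Obfc2a (fold 18.57 each, at 522, 834 and 68 bp), and Unc80, part of a neuronal sodium leak channel (fold 16.51, 219 bp). In all, 20 of 83 summits (24.1%) lay within 1 kb of a transcript start, against a background of 11.2% over all 67 sets. Of these 20 peaks 10 held the motif. Of the named start peaks Omg, which encodes a myelin glycoprotein (fold 39.37, 8 bp), did not hold it, nor did Ifna13 (fold 31.07, 19 bp). The start peaks at 924 and 945 bp from Ifna13 are also counted among the 20.

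The second grouping was a repeated sequence that carries the same core several times. A group of 9 peaks on 7 chromosomes aligned with each other at a median identity of 89.2% and had copy numbers from 2 to 32 with a median of 9. All 9 held the motif, 8 had GGACAG at least 2 times within 101 bp on 1 strand and the median was 3 times, whereas 10 of the 74 other peaks had it 2 times or more. Their folds ran from 18.57 to 63.92. None lay in a gene, and the nearest genes included Olfr748, an olfactory receptor gene, and Hsd17b13. In both printed examples a further GGACAG begins at the last capitals and runs into the lower-case bases.

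The third grouping was of peaks close together. In 4 places at least 3 peaks followed each other within 10 kb, 16 peaks in all or 19.3% of the set, and 1 of these 16 held the motif, against 37 of the other 67. Around Ifna13, an interferon gene, 5 peaks spanned 3481 bp (summits 88287806 to 88291287 on chromosome 4, folds 14.44 to 31.07). On chromosome 5, 4 peaks spanned 3416 bp at 22994 to 26410 bp from Yes1, a Src family kinase (folds 12.38 to 28.89). Near Clcn4-2, a chloride transporter gene on chromosome 7, 3 peaks spanned 6803 bp with folds of 26.82 to 40.98 and 13 to 361 tags, the latter the highest tag number of the set. The peak with 13 tags had a copy number of 1288, and the part that read placement plays there was not tested. On the X chromosome 4 peaks spanned 1738 bp at 52625 to 54363 bp from Itm2a (folds 16.23 to 35.08). Just 1 of the 16 grouped peaks, near Yes1, was shared with another KRAB-ZFP, Gm14401. The other 4 sets held no group of 3 peaks: 2 LOC102638055 peaks lay 4694 bp apart, in an intron of 2310061I04Rik and a UTR of Atat1, and 2 Gm13212 peaks 1402 bp apart in D230004N17Rik.

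Of all its peaks, 2610305D13Rik had 13 (15.7%) with a copy number of 10 or more, where the background over the 67 sets was 34.5%. Against a background of 13.8% of all peaks, it shared 20 loci (24.1%) with other KRAB-ZFPs, 5 each with Gm13152 and Gm13247 and 3 with Gm13212.

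Zfp534 had the fewest peaks of the 5 sets. The motif learned on the odd-numbered chromosomes was a run of GGAAT units, and 5 of 25 held-out peaks held it (20%, Wilson interval 8.86 to 39.1), against 4 of 331 peaks of the other sets (1.21%) and 2.15% of flanking windows (Fisher's exact test, adjusted p = 0.000149). Here too the learning and held-out peaks are partly copies of the same repeat. Of all 52 peaks 16 held it, where the background in the other 62 sets was 1.09%. In 15 of the 52 windows GGAAT occurred at least 5 times on 1 strand, up to 15 times, and 15 motif peaks aligned with one another at a median identity of 95.7%. These were high and narrow peaks, with a median fold of 49.7 and width of 192.5 bp, compared with 21.4 and 284.5 bp for the 36 peaks without the motif, and 12 of the 20 highest peaks were among them. Copy numbers differed widely even so, from 1 to 214: a peak 73737 bp from Sulf1 had 1 (fold 60.74) and the peak in an intron of Dpp9, a dipeptidyl peptidase, had 208 (fold 69.76, 52 tags).

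Another matrix was learned when the chromosomes were exchanged. Learned on the even-numbered chromosomes, nGnnnnGnnAGGAnnGGnAn was found in 14 of 27 peaks on the others (51.9%, Wilson interval 34.0 to 69.3), in 4.74% of peaks of the other sets and in 3.13% of flanking windows (Fisher's exact test, adjusted p = 2.12e-10). Of these 14 peaks 10 held the GGAAT motif too, and of the 16 peaks there without it 4 held the new one. Of all 52 peaks 33 held the new one, 15 of them with the GGAAT run and 18 without. These counts include the 25 peaks from which the new matrix was learned, and just 4 of the 18 were held-out peaks. The 18 without had a median fold of 20.6, and 15 of them lay in genes, in contrast to 3 of the 15 with both. The values of the 18 thus mostly describe peaks used in learning. The 18 peaks with neither motif had a median fold of 22.2.

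The highest Zfp534 peak lay in an intron of Farp2, a guanine nucleotide exchange factor (fold 82.51, 134 tags, copy number 1). The others of the top 5 were the GGAAT peak 367991 bp from Arid1b (fold 78.76, 115 tags), an exon of the non-coding Gm12003 (fold 75.01, 122 tags), the Dpp9 intron, and a peak 99627 bp from Gm8882 (fold 64.78, 40 tags). The Farp2 and Gm12003 peaks lacked the GGAAT run. Transcript starts were within 1 kb of 12 of 52 summits (23.1%, against a background of 11.2% over all 67 sets). These peaks were lower than the rest, with a median fold of 18.4 compared with 29.8. They included AL663080.1, whose start is near the Gm12003 peak (fold 75.01, 296 bp), Gm5834 (fold 63.11, 650 bp), Thap1, a zinc-binding transcription factor (fold 34.86, 139 tags, 249 bp), Hmox2, a haem oxygenase (fold 25.34, 803 bp), and Abr (fold 20.63, 982 bp). Other exons, those annotated as neither coding nor UTR at the summit, held 5 summits (9.62%, Wilson interval 4.18 to 20.6), where all 67 sets had 0.802%. Against a background of 13.8% of all peaks, Zfp534 shared the largest part of its loci among the 5 sets, 18 of 52 (34.6%). Zfp617 shared 11 of them, which is 21.2% of the Zfp534 set and 1.44% of the 764 Zfp617 peaks, and Zfp810 shared 7, 13.5% of one set and 2.88% of the other. Each of these 11 and 7 Zfp534 peaks held the GGAAT motif, whereas it was present in 15 of 764 Zfp617 and 7 of 243 Zfp810 peaks. Both carry the same tag, antibody and controls as Zfp534, and the part of these in the sharing was not tested. Gm13152 and Gm13247 followed with 2 loci each.

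Gm13212 gave no motif. The best candidate, nnAAGnCAGAnn, was in 3 of 99 held-out peaks (3.03%, Wilson interval 1.04 to 8.53), in 9 of 257 peaks of the other sets (3.50%) and in 2.21% of flanking windows (Fisher's exact test, adjusted p = 1), and in 2.81% of peaks of the other 62 KRAB-ZFPs. Of its 191 peaks 77 aligned with another of the set, 60 of them in 1 group with a median identity of 83.8%; in windows 2000 bp away 55 did, and the largest group there held 35. A copy number of 1 was found for 166 peaks (86.9%) and of 10 or more for 14 (7.33%), and the highest was 4771. Base composition was the lowest in GC of the 5 sets, with a median of 43%, and 9 peaks (4.71%) had at least 5 CpG in 200 bp, against 44 of 83 (53.0%) for 2610305D13Rik.

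Of the Gm13212 summits 90 of 191 (47.1%) lay in a gene, where the background over the 67 sets was 41.1%. Intergenic summits numbered 101 and intronic ones 85. Within 1 kb of a transcript start lay 12 (6.28%), against a background of 11.2%. Those with the highest folds were Gm15300 (fold 16.63, 8 tags), Apob, the main apolipoprotein of low-density lipoprotein (fold 16.63, 11 tags, 741 bp), Actc1, cardiac actin (fold 16.63, 12 tags, 588 bp), Olfr24 (fold 15.59, 8 tags) and Mfap3 (fold 14.25, 11 tags). At the top of the set 9 peaks tied at a fold of 19. By score the first 5 of these were 25597 bp from Cacng5 (13 tags), in an intron of Nup210, a nuclear pore protein (10 tags), 771928 bp from Gm1818 (12 tags), 71122 bp from Six2 (11 tags) and 419793 bp from Kcna4 (9 tags). Peaks shared with other KRAB-ZFPs numbered 22 (11.5%, against a background of 13.8% of all peaks), 9 with Gm13251 and 3 each with 2610305D13Rik and Gm13235.

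The motifs were seldom met in the other sets. On held-out chromosomes, no motif of one set was found in more than 4.79% of the peaks of another. With the chromosomes exchanged, the highest shares were 11.4% (4 of 35 Gm30910 peaks, for each of the Zfp534 and Gm13212 matrices) and 5.43%.

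**Figure D3:**
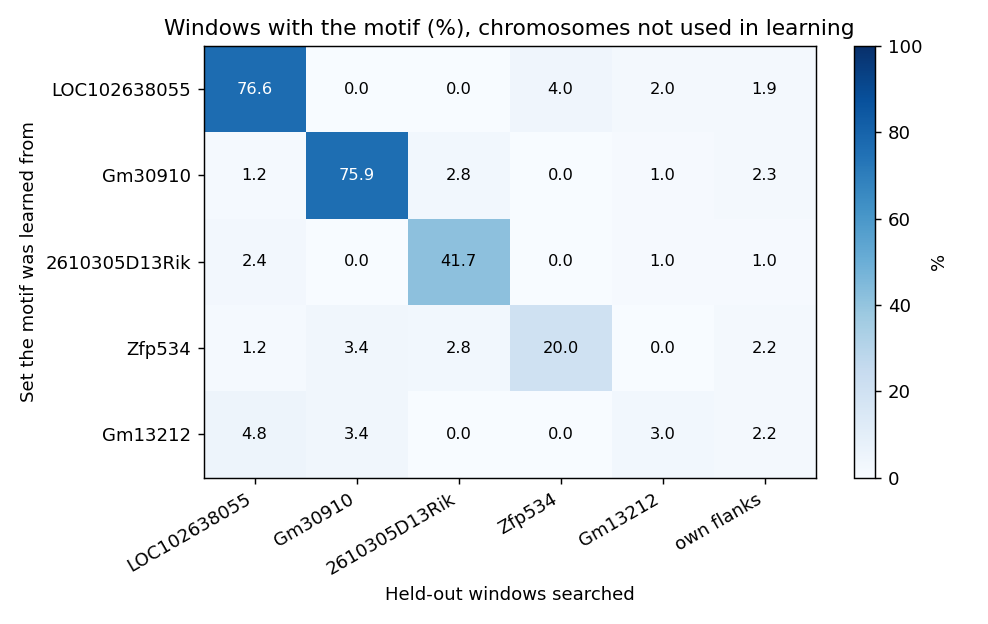
Percentage of held-out 101 bp windows that hold each learned motif (rows), in the peaks of each set and in the flanks of the motif's own peaks (columns). High values appear on the diagonal for LOC102638055 (76.6%), Gm30910 (75.9%), 2610305D13Rik (41.7%) and Zfp534 (20.0%), and not for Gm13212 (3.0%).

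**Figure D4:**
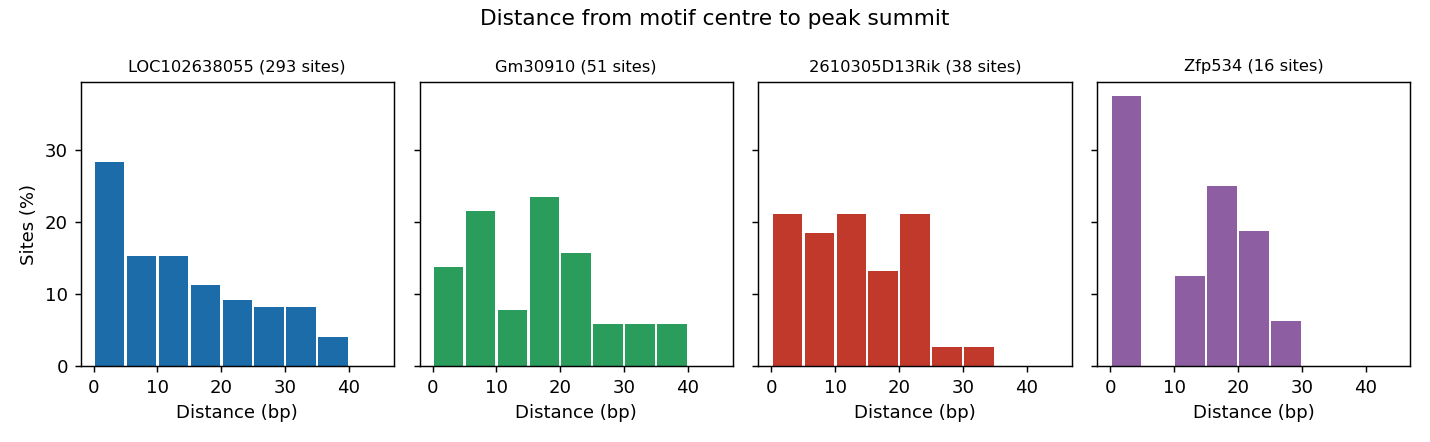
Distance in bp from the motif centre to the peak summit, as a percentage of sites with the motif, in bins of 5 bp, for the 4 sets with a motif. A centre cannot lie further than about 40 bp away, because windows reach 50 bp from the summit. Within 25 bp lay 94.7% of 2610305D13Rik sites, 93.8% of Zfp534 sites, 82.4% of Gm30910 sites and 79.5% of LOC102638055 sites.

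Where the peaks lay was compared for each of the 10 pairs of sets by two-sided Fisher's exact tests, adjusted over the 10 pairs. Multi-copy peaks differed in 2 pairs. By the exact test, LOC102638055 had fewer (2.95%) than 2610305D13Rik (15.7%, adjusted p = 0.000229) and Zfp534 (19.2%, adjusted p = 0.000229). With 2 or more copies as the limit, 5 pairs differed and the order changed: Gm30910 then had the highest share (43.8%, 28 of 64), followed by 2610305D13Rik (32.5%), Zfp534 (25%), Gm13212 (13.1%) and LOC102638055 (41 of 373 peaks). The share of summits inside genes differed in 4 pairs, each involving Gm30910. It was 23.4% for Gm30910 (15 of 64, Wilson interval 14.7 to 35.1), against, with exact tests, 59.6% for Zfp534 (adjusted p = 0.000593), 50.6% for 2610305D13Rik (adjusted p = 0.00284), 49.3% for LOC102638055 (adjusted p = 0.000593) and 47.1% for Gm13212 (adjusted p = 0.00284). The background over the 67 sets was 41.1%. The 6 pairs among the other 4 sets did not pass the threshold.

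Nearness to a transcript start split the sets further, with 6 of 10 pairs differing. 2610305D13Rik (24.1%), Zfp534 (23.1%) and LOC102638055 (15.8%) each had a larger share within 1 kb than Gm13212 (6.28%) and Gm30910 (3.13%). The adjusted p values by Fisher's exact test were 0.000637, 0.00250 and 0.00250 against Gm13212, and 0.00157, 0.00250 and 0.00887 against Gm30910. The remaining 4 pairs, within the first 3 sets and between the last 2, did not pass. The difference between Gm30910 and Zfp534 fell to 10.0 percentage points (adjusted p = 0.197) in the exact test on peaks with a p below 1e-10 and an enrichment above 20, and that between Gm13212 and Zfp534 no longer passed within 5 kb of a start (adjusted p = 0.185).

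**Figure D5:**
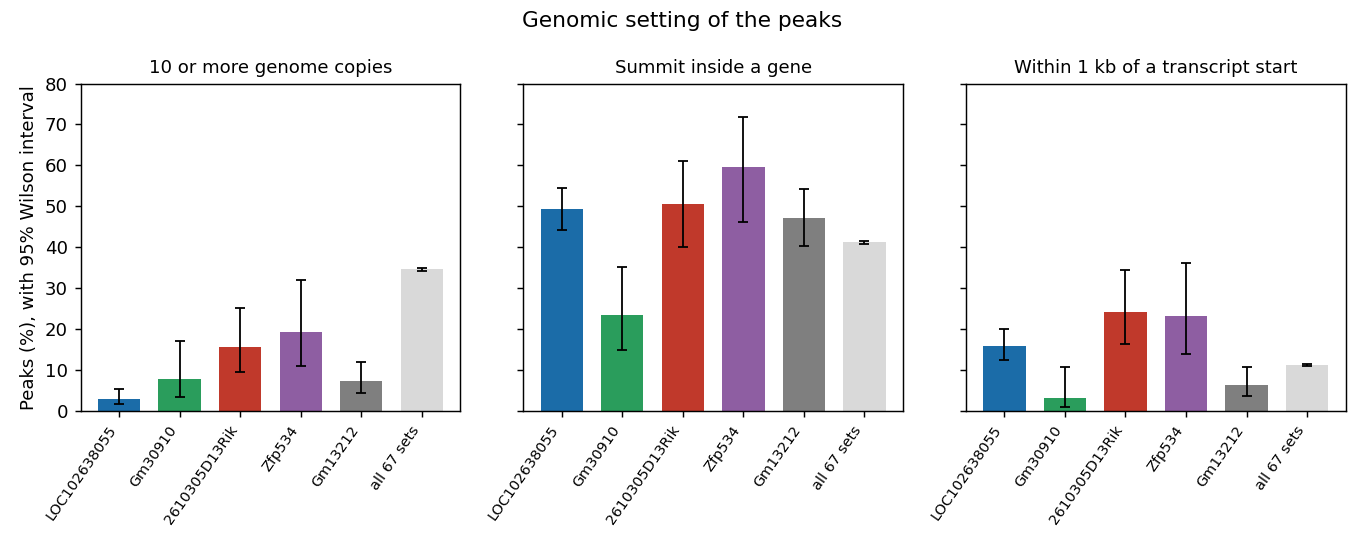
Percentage of peaks with a copy number of 10 or more, with the summit inside a gene, and with the summit within 1 kb of a transcript start, for each set and for all 67 sets; error bars are 95% Wilson intervals over peaks and cover counting error only. Gm30910 is lowest inside genes and LOC102638055 lowest in multi-copy peaks, while all 5 sets lie under the 34.5% multi-copy share of the whole series. The median multi-copy share of the other 13 FLAG sets was 18.2% (not drawn), which of the 5 sets only Zfp534 (19.2%) exceeded.

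Hardly any locus was shared within the 5 sets. With an overlap of at least 25% of the 200 bp windows, 5 loci were called for 2 of them. Of these loci 3 were called for both 2610305D13Rik and Gm13212, namely 257983 bp from Ccng1 on chromosome 11 (summits 3 bp apart, folds 19.25 and 16.41), 63534 bp from Ppapdc1a on chromosome 7 (6 bp apart, folds 14.64 and 11.21) and 13867 bp from Dok5 on chromosome 2 (10 bp apart, folds 12.63 and 15.52). Copy numbers there ran from 5 to 40. 2610305D13Rik and Zfp534 met in an intron of D6Wsu116e on chromosome 6 (folds 12.11 and 12.29, copy number 10), a locus called for 10 KRAB-ZFPs in all. Gm30910 and Zfp534 met 8095 bp from Olfr854 on chromosome 9, with summits 3 bp apart and folds of 29.43 and 56.26; this was a GGAAT repeat peak of Zfp534 and 4 KRAB-ZFPs were called there. LOC102638055 shared no locus with the other 4.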

How the data were processed

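The table held 53255 ChIP-seq peaks. The 244 peaks of 1 per-sample name without a label were left out. By the labels and the study's methods, reads were mapped to mm9 with Bowtie after trimming 3 bases, multi-mapping reads were placed at 1 position, peaks were called per sample with MACS 1.4.2, and those called against both controls were kept and set to 200 bp. The authors deposited for each peak a count of tags, a score (10 times the negative log10 of p), a fold enrichment (a ratio) and a false discovery rate in percent. They were used as deposited, to describe, rank or filter. Members and gene lists were chosen with earlier results of these data known.

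Genes came from gencode vM1 on NCBIM37, which is mm9. Copy numbers count 24-base words on both strands of the genome. Motifs of 10 to 24 bp were learned by expectation maximisation (numpy 2.4.6) on odd-numbered chromosomes and X, with a score threshold passed by 2% of windows lying 500 to 2900 bp away, and were turned to the strand richer in A and G. Peak windows of 600 bp were aligned with blastn 2.17.0 at an E value of 1e-10, and alignments had to cover the middle. Shares were compared with Fisher's exact test (scipy 1.17.1) with Benjamini-Hochberg adjustment and a threshold of 0.05. With a simulated motif planted in 50% of windows, 78.6% to 97.8% of held-out copies were found per set; with 25%, 3 of 5 sets gave at least 50% of them.

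Genes named are the 5 highest peaks by fold per set (ties by score), up to 5 transcript starts within 1 kb, shared loci, groups of at least 3 peaks and, per set, the 3 KRAB-ZFPs with the most shared loci; others were chosen after their values were seen, as were the alternatives without Gm13212. Library depth is not given in the sources used here. Intervals cover counting error only.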

Additional observations from a re-analysis of the deposited data

How the results depend on the processing

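No paired analysis was possible because each KRAB-ZFP had 1 sample, and for the same reason no replicate could be left out. Under p under 1e-10, or a false discovery rate of at most 5%, Gm13212 kept no peak, so that 6 pairs and 4 motif tests remained. The motif calls of the 4 sets were kept under every alternative run, with held-out shares of 38.9% to 57.9% for 2610305D13Rik, 75.9% to 80% for Gm30910, 66.5% to 77.2% for LOC102638055 and 15.8% to 29.4% for Zfp534. Learning on the even-numbered chromosomes gave Zfp534 a different matrix, with 51.9%. The Gm13212 share passed its comparison sets, without a call, when peaks within 10 kb were counted once (4.04%) and at a threshold of 0.5% of flanking windows (1.01%). With 2 or more copies as multi-copy, 5 pairs differed. For transcript starts 2 of 6 pairs differed at p under 1e-10 and enrichment over 20, and 3 of 6 at enrichment over 10, at a false discovery rate of at most 5% and without Gm13212; fewer pairs were tested there. Shared loci fell from 5 to 1 at enrichment over 20 and to 2 under the other 3 of these settings, and grouped peaks from 20 to 10 at enrichment over 20. The other results kept their side of the threshold or their counts within 1.5 times. The strength of a peak set limits these comparisons: a locus missing from a list may have been bound below the labelled threshold.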
